A study of Homo sapiens with 12 samples.

Results

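The genes described here are 43 interferon-stimulated and antigen presentation genes, read across 2 immortalized human keratinocyte lines with and without hydrogen peroxide. They were chosen by symbol from the count table, where all 43 were present among 58735 genes, each listed once. The set holds 37 interferon-stimulated genes and 6 genes of the class I antigen presentation pathway. HaCaT cells derive from skin and TIGK cells from gingiva. The 4 groups were untreated HaCaT, HaCaT exposed to 5 mM H2O2 for 3 h, untreated TIGK and TIGK exposed in the same way, with 3 libraries each. All cells were kept in the same keratinocyte medium, and polyadenylated RNA was sequenced. In the sample labels the formula of the added compound runs from H2O2 to H2O3 and H2O4 with the replicate number, while the treatment protocol names H2O2 for all treated samples. Each tissue is represented by 1 line, so the tissue of origin, the donor and the way of immortalization cannot be told apart in any difference between the lines. The sources used here do not state whether the 3 libraries of a group came from separate cultures, and the p-values then measure the spread between these libraries, which may be technical.

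Interferons are secreted proteins that cells release when they sense viral nucleic acid or other danger. Type I interferons and type III (lambda) interferons bind receptors that activate the kinases JAK1 and TYK2, and a complex that holds STAT2 and IRF9 then enters the nucleus. This complex binds a short DNA element, the interferon-stimulated response element (ISRE), in front of genes whose products block viral entry, replication or release. Interferon gamma acts through another element, the gamma-activated site (GAS), and raises class I antigen presentation, by which cells display peptides on HLA molecules. Epithelial cells of skin and mouth carry the receptors for type I and type III interferons.

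Keratinocyte identity was visible in every group. All 8 keratinocyte markers examined were abundant in all groups, the least abundant being TP63 with 128 TPM (a level scaled to library size and gene length) in TIGK after H2O2. The leukocyte marker PTPRC was at 0 or close to it in both lines. The summed level of 6 leukocyte markers was 7.31 ± 1.01 TPM (SD, n = 3) in untreated TIGK and 2.43 ± 0.161 TPM in untreated HaCaT. CD14 made up 5.76 TPM of the sum in TIGK. LCP1 went the other way, with 1.46 TPM in untreated TIGK and 1.94 TPM in untreated HaCaT. After H2O2 LCP1 was at 0.719 TPM in TIGK and 1.71 TPM in HaCaT. The summed level of 6 fibroblast markers was 8.74 ± 0.297 TPM in untreated TIGK and 3.56 ± 0.489 TPM in untreated HaCaT, with COL1A2 at 0 in both. After H2O2 the leukocyte sums were 6.66 and 2.00 TPM and the fibroblast sums 10.2 and 3.68 TPM in TIGK and HaCaT, and the part of such cells in the differences below was not tested. The group means of 4 summed endothelial markers lay between 0.219 and 0.461 TPM and those of 4 melanocyte markers between 0.791 and 1.69 TPM. Total counts per library lay between 30426401 and 49034244.

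The promoter sequences of the genes carried the letters to which interferon-activated factors are known to bind. Promoter windows of 250 bases before to 50 bases after the start site, from RefSeq annotation of GRCh38.p14, were matched for 34 of the 43 genes. The ISRE core searched was GAAANNGAAA on either strand (TTTCNNTTTC when read on the other strand). It was found in 23 of the 34 genes (67.6%) and in 4.38% of 27305 genes with a window. The GAS core TTCNNNGAA, which reads the same on both strands, was found in 8 of the 34 genes (23.5%) and in 9.38% of all genes. The ISRE and GAS matches shared bases in 4 genes (BST2, IFI27, IFITM1 and MX1). No window held an ISRE match for 11 genes, CMPK2, DDX58, HERC6, HLA-B, HLA-C, IRF1, IRF9, OAS1, SAMD9L, STAT2 and XAF1. IRF7, IFIT2, OAS2, OASL, MX2, TRIM22, IFITM2, USP18 and HLA-E had no matched window. A match describes letters in a window and is not a measured binding site.

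The following stretches lie before the start sites and are printed 5′ to 3′ on the strand of the gene, with each ISRE core that lies whole in the stretch in capitals. They are examples, chosen after the values were seen: BST2 to ISG15 were lower in HaCaT under both conditions, and IFITM1, IFITM3, SAMD9, TAP2 and B2M are shown because they are discussed below for smaller or opposite differences. The IFITM3 stretch begins within another match, which is not marked. Coordinates are those of GRCh38.p14.
BST2 (chr19:17405733-17405772, minus strand): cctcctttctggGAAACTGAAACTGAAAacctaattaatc
IFI6 (chr1:27672264-27672297, minus strand): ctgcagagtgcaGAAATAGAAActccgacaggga
IFI27 (chr14:94110616-94110662, plus strand): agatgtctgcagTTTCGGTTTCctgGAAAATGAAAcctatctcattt
IFI44L (chr1:78620363-78620396, plus strand): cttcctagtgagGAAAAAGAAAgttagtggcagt
HERC5 (chr4:88457033-88457066, plus strand): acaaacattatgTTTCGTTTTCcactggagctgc
IFIT1 (chr10:89392495-89392541, plus strand): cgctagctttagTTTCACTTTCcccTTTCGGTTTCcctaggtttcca
IFIT3 (chr10:89332466-89332499, plus strand): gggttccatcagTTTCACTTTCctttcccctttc
ISG15 (chr1:1013372-1013411, plus strand): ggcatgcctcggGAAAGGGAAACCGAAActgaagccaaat
IFITM1 (chr11:313988-314021, plus strand): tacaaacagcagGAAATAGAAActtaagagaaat
IFITM3 (chr11:320874-320907, minus strand): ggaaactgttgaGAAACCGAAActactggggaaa
SAMD9 (chr7:93118094-93118127, minus strand): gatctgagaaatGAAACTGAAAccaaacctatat
TAP2 (chr6:32838776-32838809, minus strand): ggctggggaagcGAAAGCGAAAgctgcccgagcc
B2M (chr15:44711361-44711400, plus strand): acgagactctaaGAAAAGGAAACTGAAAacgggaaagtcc

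The stretches of BST2, ISG15 and B2M each hold overlapping copies of the core, while those of IFI27 and IFIT1 hold separate ones. IFITM1 and IFITM3, whose levels are described below, also carried the core. The plot of motif positions shows that in 22 genes an ISRE match lay wholly before the start site.

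**Figure D1:**
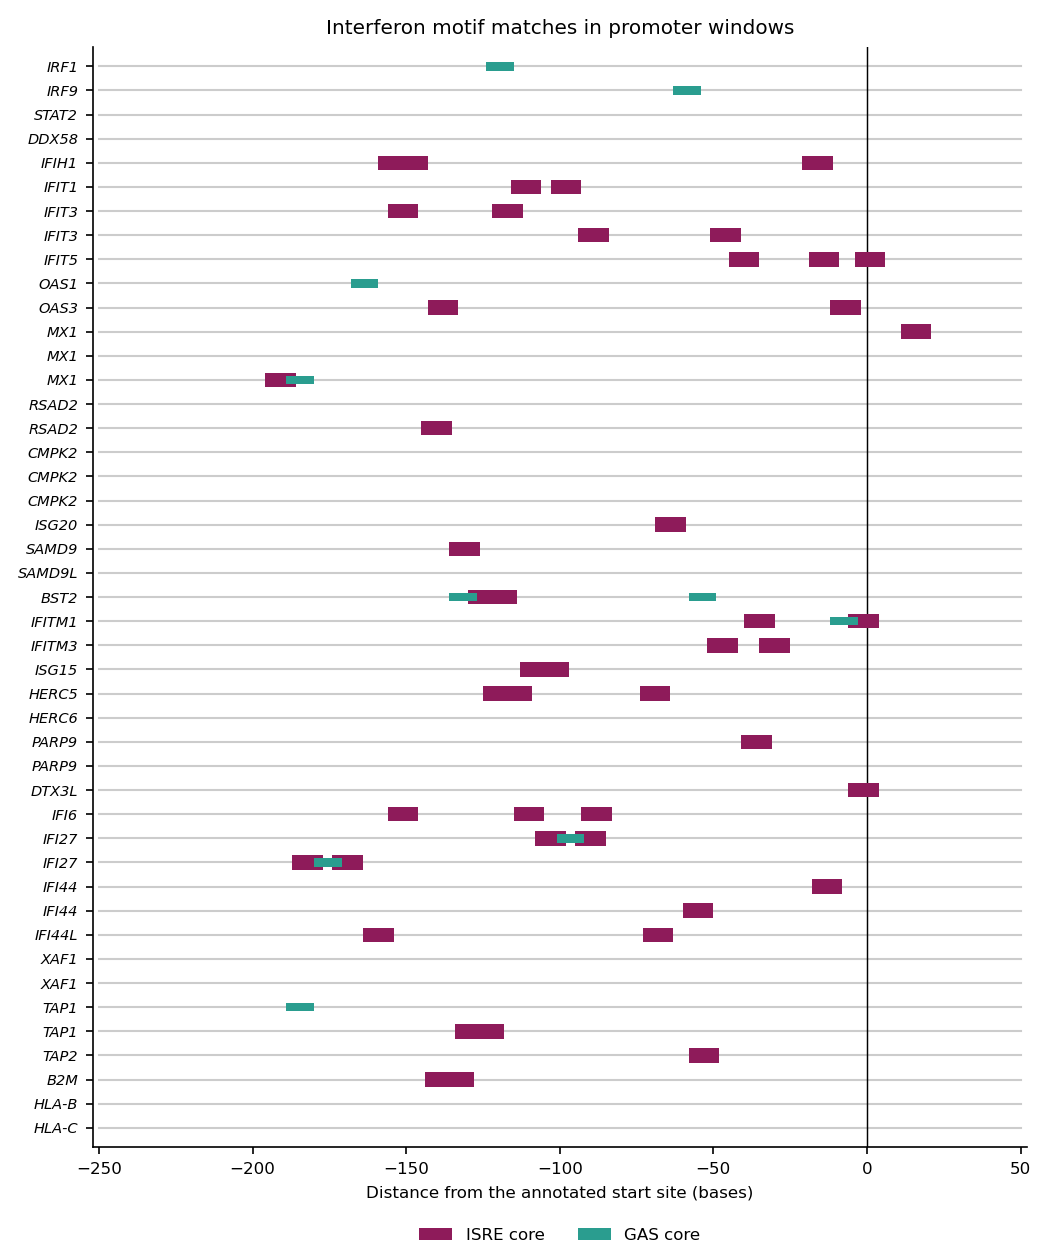
Positions of ISRE core and GAS core matches (coloured blocks, drawn at their length) along promoter windows of 34 genes, each grey line being 1 window from 250 bases before to 50 bases after the annotated start site at 0. Genes with several windows have several lines, and the ISRE blocks gather in the part before the start site.

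The levels of the interferon-stimulated genes set the lines apart before any treatment. Summed over the 37 genes, the level was 2210 ± 40.5 TPM in untreated TIGK and 364 ± 8.42 TPM in untreated HaCaT, and after H2O2 it was 2840 ± 40.3 TPM in TIGK and 469.5 ± 16.7 TPM in HaCaT. In TIGK the highest were BST2, IFI6 and IFITM3, which together made up 64.3% of the sum, whereas in untreated HaCaT they were IFITM3, IFITM2 and IFIT5. Untreated TIGK had 24 of the 37 above 10 TPM and 2 below 1 TPM, and untreated HaCaT had 10 above 10 TPM and 14 below 1 TPM. The 6 antigen presentation genes summed to 1042 ± 42.8 TPM in untreated TIGK and 393 ± 10.7 TPM in untreated HaCaT. XAF1, a pro-apoptotic interferon target, was the only member whose mean raw count stayed under the filter of 10 and was not tested; its normalized counts lay between 2.96 and 18.2 over the 12 libraries.

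**Figure D2:**
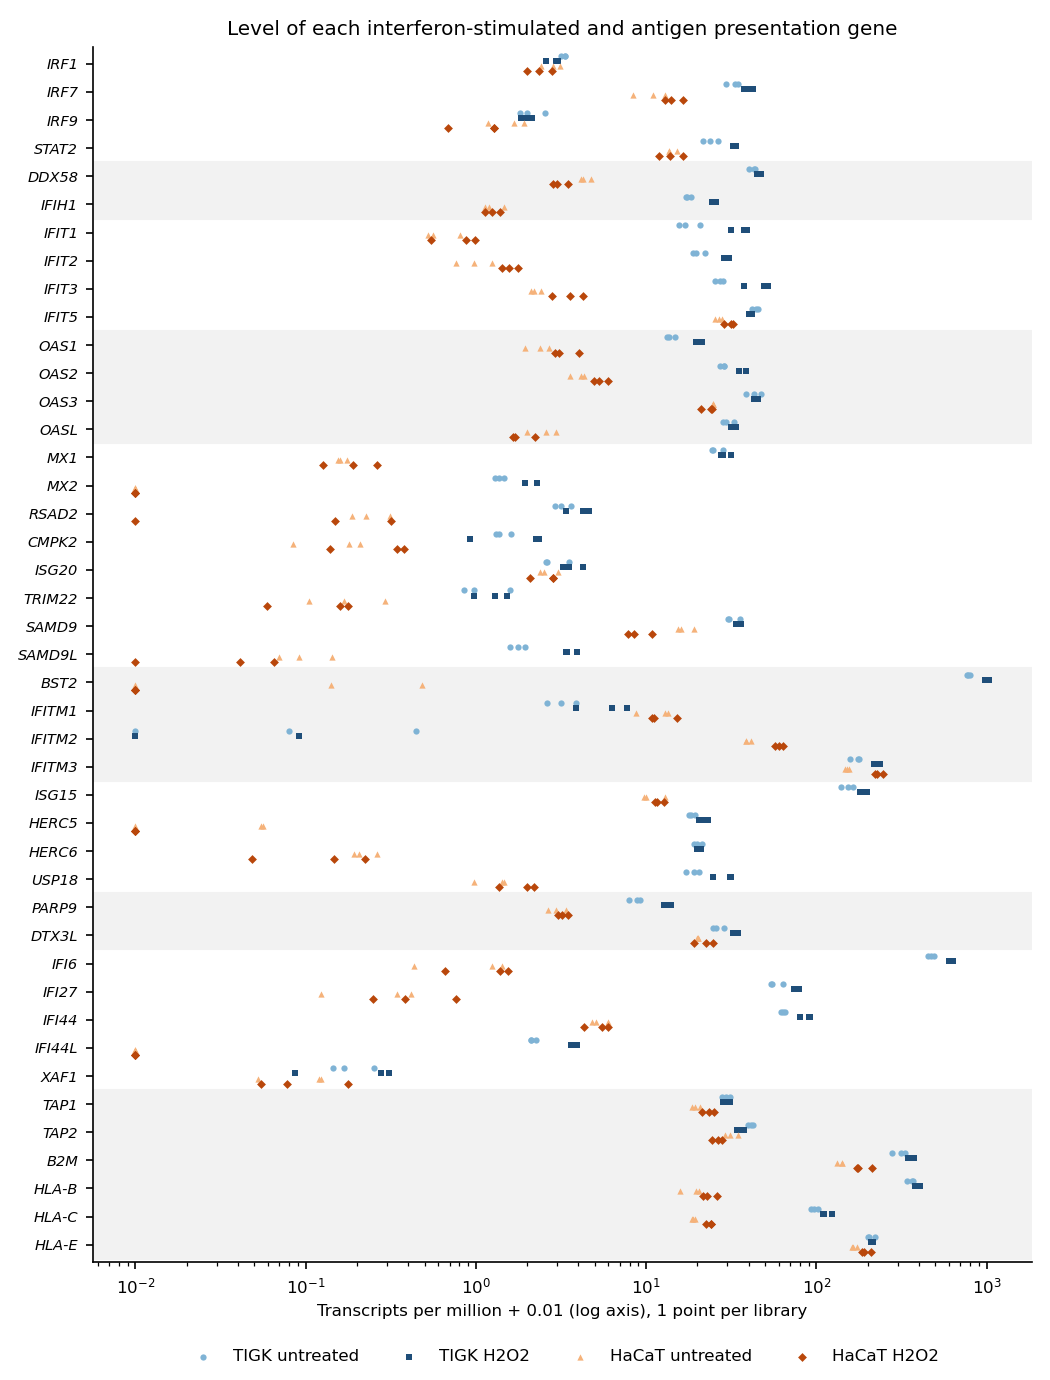
Level of each of the 43 genes in TPM + 0.01 on a log axis, 1 point per library (circles untreated TIGK, squares TIGK after H2O2, triangles untreated HaCaT, diamonds HaCaT after H2O2), with shading by role. Points at the left edge are listed at 0 TPM, and for most genes the TIGK points lie to the right of the HaCaT points, with IFITM1 and IFITM2 the other way round.

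The first comparison asked how the untreated lines differ. Genes with a mean of at least 10 raw counts were tested with edgeR's quasi-likelihood test, and a gene was called at a Benjamini-Hochberg adjusted p under 0.01 over all 16618 genes tested. Of the 42 members tested, 33 (78.6%) were lower in HaCaT than in TIGK, where 30.8% of all genes tested were called lower, and 2 (4.76%) were higher, where 29.1% of all genes were called higher. The median log2 fold change of the members, HaCaT minus TIGK, was -2.83, beside -0.007 over all genes. Over all genes tested, every untreated HaCaT library lay below every untreated TIGK library in 37.1% and above in 36.2%. Normalized counts below are counts scaled to the mean library size. In bulk RNA a lower value can come from fewer expressing cells or from less RNA per cell, and these cannot be told apart.

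Among the membrane-bound restriction factors, BST2 (tetherin, which holds budding virions on the cell surface) had the highest level of the whole set in TIGK, with 779 ± 14.2 TPM. Its normalized counts were 8244, 8227 and 7725 in untreated TIGK and 1.53, 5.53 and 0 in untreated HaCaT. All 3 TIGK libraries were far above the HaCaT libraries, and HaCaT had 7 raw counts over its 3 libraries. The ratio of the lines was 3720-fold, with an exact 95% interval of 1800 to 9250 that covers counting error only. The IFITM proteins, which block fusion of viral and cell membranes, did not share this pattern. IFITM3 was at 2031, 2184 and 2152 normalized counts in untreated TIGK and at 2068, 2187 and 2133 in untreated HaCaT, and the groups overlapped. IFITM2 was at 1.02, 6.22 and 0 normalized counts in untreated TIGK and at 663, 618 and 625 in untreated HaCaT. It was the member with the largest difference in favour of HaCaT, by 265-fold (95% interval 128 to 660, counting error only). IFITM1 was higher in HaCaT by 2.04 on the log2 scale (SE 0.29). The gene model of IFITM1 lies wholly within that of IFITM2 on the same strand (chr11:307631-315272, over 1767 bases), and the IFITM genes are close in sequence. How the counting split their reads was not given in the sources used here, so the values of single IFITM genes are uncertain.

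The genes named only by their induction were far apart as well. IFI6, a small protein of inner membranes induced by type I interferon, was at 3867, 3933 and 3534 normalized counts in untreated TIGK and at 3.82, 11.1 and 12.8 in untreated HaCaT. Each TIGK library was above each HaCaT library by a wide margin, and the log2 fold change was -8.74 (SE 0.16), a 428-fold difference. IFI27 was at 2166, 2457 and 2008 in untreated TIGK and at 17.6, 14.4 and 4.94 in untreated HaCaT, with a log2 fold change of -7.43 (SE 0.20). IFI44L was at 204, 199 and 207 normalized counts in untreated TIGK and was listed at 0 in all 3 untreated HaCaT libraries. Against a floor of 3 counts per library, it was at least 71.2-fold lower in HaCaT. IFI44, its paralog, was lower in HaCaT by 3.40 on the log2 scale, with 102 to 128 normalized counts there.

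The genes grouped here with the ISG15 system, which attaches the ubiquitin-like protein ISG15 to other proteins, were low throughout in HaCaT. ISG15 itself was at 1379, 1433 and 1190 normalized counts in untreated TIGK and at 127, 95.0 and 97.7 in untreated HaCaT, a log2 fold change of -3.63 (SE 0.12). HERC5, the main ligase for ISG15 in human cells, was at 808, 805 and 828 in TIGK against 2.29, 2.21 and 0 in HaCaT. With 5 raw counts in HaCaT, the ratio was 525-fold (95% interval 225 to 1620, counting error only). HERC6 was at 1052, 1064 and 1116 in untreated TIGK and at 15.3, 11.1 and 11.9 in untreated HaCaT. USP18, which removes ISG15 and dampens the type I receptor, was lower in HaCaT by 3.73 on the log2 scale (SE 0.19). All 4 genes of this group were thus called lower in HaCaT, with no overlap between the lines in any of them.

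The MX proteins, dynamin-like GTPases that trap viral components, were also far apart. MX1 was at 2001, 1955 and 2207 normalized counts in untreated TIGK and at 13.0, 13.3 and 14.8 in untreated HaCaT, a 149-fold difference (log2 fold change -7.22, SE 0.15). MX2 was at 160, 175 and 159 in TIGK and listed at 0 in all 3 HaCaT libraries, at least 57.6-fold lower. Among the other antiviral effectors RSAD2 (viperin), CMPK2, TRIM22, SAMD9L and SAMD9 were also called lower in HaCaT. The gene model of TRIM22 lies wholly opposite TRIM5, a gene with a mean of 790 raw counts. Whether reads were assigned by strand was not given, so the TRIM22 values are uncertain. SAMD9 was the most abundant of the group by TPM and differed least among those called, with 1980, 1943 and 2190 normalized counts in TIGK and 1099, 1137 and 1374 in HaCaT. Its log2 fold change was -0.76 (SE 0.09), and the libraries of the lines did not overlap. ISG20, an RNA exonuclease, gave 0.03 (SE 0.18) with an adjusted p of 0.90.

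The IFIT genes, whose proteins bind viral RNA ends, were all called lower in HaCaT, with log2 fold changes from -4.63 for IFIT1 to -0.54 for IFIT5. IFIT3, which reached the highest level of them in any group (46.3 TPM in treated TIGK), was at 679, 617 and 671 normalized counts in untreated TIGK and at 60.4, 57.5 and 66.1 in untreated HaCaT. IFIT1, IFIT2 and IFIT3 lie opposite LIPA, a gene with a mean of 3590 raw counts, and whether reads were assigned by strand was not given in the sources used here. The OAS genes, of which OAS1, OAS2 and OAS3 make the activator of RNase L, were all called lower too, from -3.43 for OASL to -0.62 for OAS3. OAS3 was at 3023, 3286 and 3511 normalized counts in TIGK and at 2135, 2121 and 2129 in HaCaT.

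The RNA sensors DDX58 (RIG-I) and IFIH1 (MDA5), which detect viral RNA in the cytoplasm, were lower in HaCaT by 3.09 (SE 0.08) and 3.63 (SE 0.12) on the log2 scale. DDX58 was at 1664, 1754 and 1685 normalized counts in untreated TIGK and at 216, 191 and 189 in untreated HaCaT. Differences were smaller among the transcription factors that carry the signal. IRF7, which amplifies interferon production, was at 739, 808 and 823 in TIGK and at 303, 350 and 231 in HaCaT, a log2 fold change of -1.42 (SE 0.13). STAT2 was lower in HaCaT by 0.58 (SE 0.09), while IRF1 and IRF9 were not called (adjusted p = 0.73 and 0.46). The gene model of IRF9 lies within that of another gene on the same strand, AL136295.5. PARP9 was called lower in HaCaT (log2 fold change -1.36) and its partner DTX3L was not (-0.20, adjusted p = 0.0176).

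Class I antigen presentation differed gene by gene. HLA-B, a classical class I heavy chain, was at 10651, 10308 and 9399 normalized counts in untreated TIGK and at 630, 646 and 505 in untreated HaCaT, a 17.0-fold difference (log2 fold change -4.09, SE 0.10). HLA-C was lower in HaCaT by 2.19 (SE 0.07), and B2M, the light chain shared by all class I molecules, by 0.98 (SE 0.09). TAP1, a subunit of the peptide transporter, was lower by 0.42 (SE 0.08). TAP2, the other subunit, and the non-classical HLA-E were not called (adjusted p = 0.0106 and 0.0475). HLA-E was at 6247, 5512 and 5467 normalized counts in TIGK and at 5400, 5013 and 5090 in HaCaT, with no overlap between the lines. HLA genes vary between people and resemble each other, the HLA-B and HLA-C models share 2640 bases in the annotation used, and reads of alleles unlike the reference can be lost or shared out, so their values are uncertain.

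**Figure D3:**
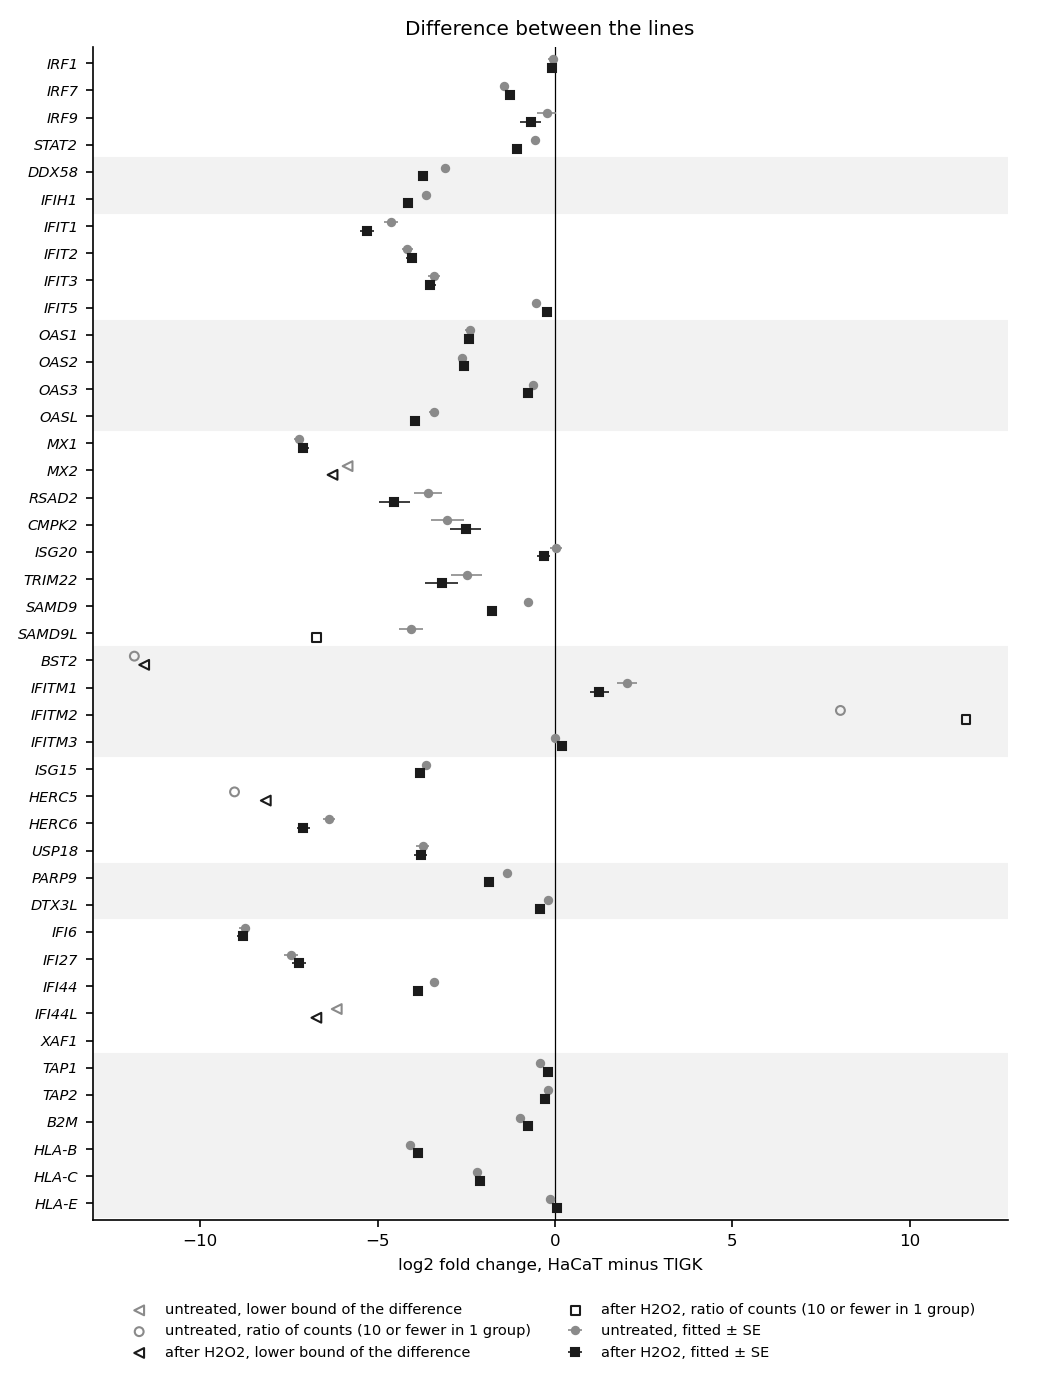
Log2 fold change, HaCaT minus TIGK, of each tested gene in untreated cells (grey circles) and after H2O2 (black squares), filled symbols being fitted values with SE. Open symbols give ratios for genes with few reads in 1 line and arrowheads give lower bounds; most genes lie to the left of 0 under both conditions, and IFITM1 and IFITM2 lie to the right.

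After H2O2 the difference of the lines was tested between the treated groups. The means compared come from other libraries than in untreated cells. Both comparisons came from the same fit over all 12 libraries, which shares its scaling and its estimate of the spread, so they are not independent. Of the 42 members, 34 (81.0%) were lower in HaCaT, beside 29.8% of all genes, and 3 (7.14%) were higher, beside 30.2% of all genes. The median log2 fold change was -2.88, beside 0.02 over all genes. Every treated HaCaT library lay below every treated TIGK library in 35.6% of all genes tested and above in 35.8%. In all, 32 members were called lower in HaCaT both before and after H2O2, and IFITM1 and IFITM2 were called higher in both. These counts are descriptive, as the shares of all genes called alike under both conditions are not given here. TAP1 was called in the untreated cells only, and DTX3L, TAP2 and IFITM3 after H2O2 only, while HLA-E, IRF1, IRF9 and ISG20 were called in neither. These calls by condition are not tests of a change in the difference, which is given further on.

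BST2 and HERC5 again stood far apart. BST2 was at 10071, 10090 and 10662 normalized counts in treated TIGK and listed at 0 in all 3 treated HaCaT libraries, at least 3070-fold lower. HERC5 was at 902, 997 and 959 in TIGK and likewise at 0 in HaCaT, at least 285-fold lower. No treated HaCaT library held a read of either gene, and the same was true of MX2 (at least 77.3-fold lower) and IFI44L (at least 106-fold lower). IFI6 was at 5054, 4721 and 4811 in treated TIGK and at 5.56, 13.99 and 12.8 in treated HaCaT (log2 fold change -8.80, SE 0.15). IFI27 was at 3012, 2880 and 2815 in TIGK and at 31.2, 16.3 and 10.7 in HaCaT (-7.22, SE 0.19). For HERC6 the difference was 137-fold, from 1066, 1115 and 1068 in TIGK to 12.2, 2.33 and 8.54 in HaCaT. In these 3 genes too the lines stayed far apart. IFITM2 was again the exception, with 1 raw count in the treated TIGK libraries and 922, 1034 and 960 normalized counts in the treated HaCaT libraries. The ratio was 3080-fold, but with so few reads its 95% interval ran from 553 to 122000. SAMD9L had 6 raw counts in treated HaCaT and was 105-fold lower there (47.9 to 287).

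A second question was how each line responded to H2O2. In TIGK, 16 of 42 members (38.1%) rose, where 10.2% of all genes tested rose, and 0 fell, where 12.9% of all genes fell. At an unadjusted p under 0.05, edgeR gave 23 higher and 2 lower members, and the share of all genes at that limit is not given here. DESeq2 with its own adjustment called 19 members higher and 0 lower, where it called 2218 and 2435 of 16617 genes. The median log2 fold change was 0.33, beside 0.008 over all genes. Every treated TIGK library lay above every untreated one in 25.7% of all genes tested and below in 25.4%. The changes were small: the largest were close to a doubling, and 2 members passed a log2 fold change of 1. The members that rose were BST2, DTX3L, IFI44, IFI44L, IFI6, IFIH1, IFIT1, IFIT2, IFIT3, IFITM3, OAS1, OAS2, PARP9, SAMD9L, STAT2 and USP18. None of the 6 antigen presentation genes was called in TIGK by edgeR's quasi-likelihood test; the nearest was HLA-C, with a log2 fold change of 0.22 and an adjusted p of 0.0129.

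The 3 IFIT genes that rose form a cluster on chromosome 10. IFIT1 was at 902, 726 and 643 normalized counts in untreated TIGK and at 1338, 1584 and 1651 after H2O2. All 3 treated libraries were above the untreated ones, and IFIT1 rose by 1.01 on the log2 scale (SE 0.14, edgeR adjusted p = 1.405e-05), a 2.01-fold change. IFIT3 went from 679, 617 and 671 to 913, 1178 and 1266 (log2 fold change 0.77, SE 0.13). IFIT2 went from 858, 719 and 728 to 1088, 1144 and 1118 (0.54, SE 0.11). In neither gene did the groups overlap. IFIT5, which lies nearby, had a log2 fold change of -0.11 (SE 0.07) and was not called.

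Other rises in TIGK were spread over the roles. SAMD9L, an inhibitor of translation in infected cells, went from 130, 116 and 101.4 normalized counts to 225, 255 and 222 (log2 fold change 1.01, SE 0.23). Its call was lost without untreated replicate 3 or treated replicate 2 (adjusted p up to 0.0143). IFI44L went from 204, 199 and 207 to 360, 339 and 370 (0.81, SE 0.16), with each treated library well above each untreated one. USP18 went from 349, 377 and 390 to 610, 609 and 484 (0.61, SE 0.14), and this call was lost without untreated replicate 1 or treated replicate 1 or 2 (adjusted p up to 0.0208). PARP9 went from 672, 764 and 713 to 1048, 1071 and 1141 (0.60, SE 0.09). OAS1 went from 698, 626 and 586 to 895, 956 and 926 (0.54, SE 0.11). The untreated and treated libraries did not overlap for any of these genes.

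The most abundant members rose less. In BST2 the TIGK values given above, 7725 to 8244 untreated and 10071 to 10662 after H2O2, make a log2 fold change of 0.35 (SE 0.07). IFI6 rose by 0.36 (SE 0.08), a call lost without untreated replicate 3 or treated replicate 1 (adjusted p up to 0.0144). IFITM3 rose by 0.42 (SE 0.06), from 2031, 2184 and 2152 to 2891, 2683 and 2937. The classical targets MX1 and ISG15 did not pass, with log2 fold changes of 0.16 (SE 0.09) and 0.28 (SE 0.09). IFI27 had a log2 fold change of 0.39 with an adjusted p of 0.0102, and IRF7, DDX58 and OAS3 had 0.29, 0.13 and 0.04.

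**Figure D4:**
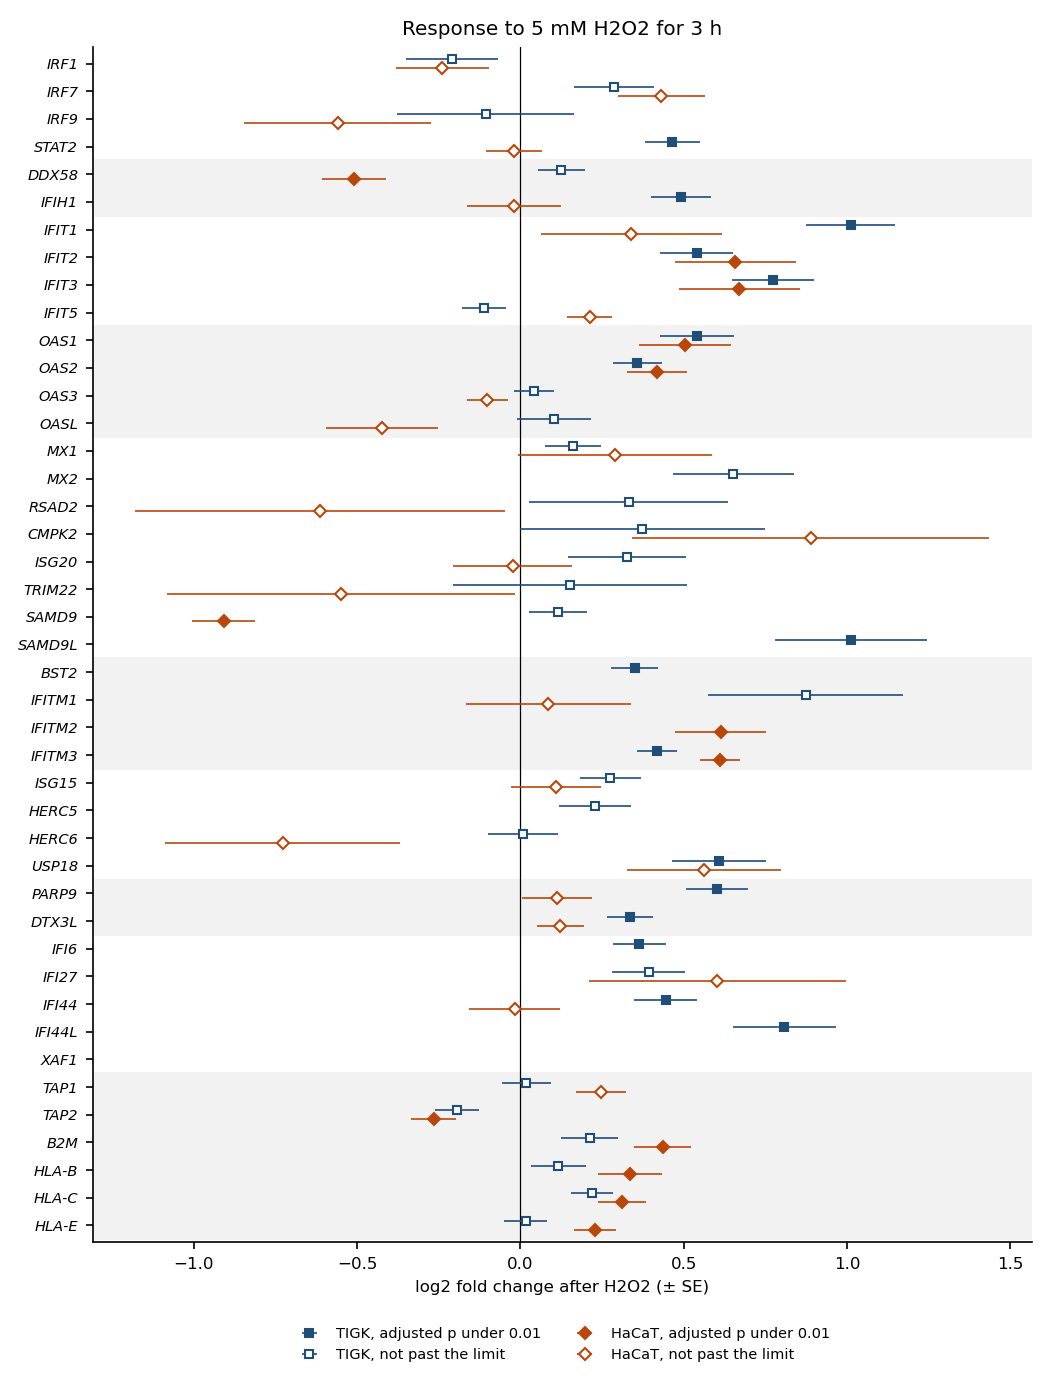
Log2 fold change after H2O2 with SE for each gene in TIGK (squares) and HaCaT (diamonds), filled where the adjusted p was under 0.01. Responses are drawn for tested genes where a line had at least 30 raw counts in 1 of its groups. This leaves out XAF1, which was not tested, in both lines and IFITM2 in TIGK. In HaCaT it also leaves out MX2, IFI44L, BST2, HERC5, SAMD9L and IFI6. Most TIGK points lie to the right of 0, and HaCaT points lie on both sides.

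In HaCaT, 10 of 42 members (23.8%) rose, where 18.9% of all genes tested rose, and 3 (7.14%) fell, where 15.2% of all genes fell. The median log2 fold change was 0.11, beside 0.04 over all genes. Every treated HaCaT library lay above every untreated one in 29.7% of all genes tested and below in 24.1%. The share of members that rose was near that of all genes, but the 42 include members that could not be called in HaCaT. MX2 and IFI44L were listed at 0 in every HaCaT library. BST2 and HERC5 had 7 and 5 raw counts in the untreated HaCaT libraries and 0 after H2O2. SAMD9L, IFI6, RSAD2, CMPK2, TRIM22, HERC6, MX1 and IFI27 had 6 to 52 raw counts per HaCaT group, so small changes in them could be missed. The count depended on the libraries fitted: it was 5 without untreated TIGK replicate 2, treated TIGK replicate 2 or untreated HaCaT replicate 3. It was 6 without treated TIGK replicate 3 or untreated HaCaT replicate 2. Rises over all genes went from 3135 to 2407, 2362, 2314, 2412 and 2360 in these fits, in the order given. Leaving out a TIGK library does not change the HaCaT counts, only the filter, scaling and spread that all libraries share. Without these TIGK replicates the median log2 fold change of all genes in HaCaT was 0.0015, 0.0005 and 0.0009. With upper-quartile scaling 6 rose and 3 fell, where 2551 and 2824 of all 16618 genes did. With HaCaT fitted alone 3 rose and 2 fell, where 2139 and 2518 of 15792 genes did. The members that rose were B2M, HLA-B, HLA-C, HLA-E, IFITM2, IFITM3, IFIT2, IFIT3, OAS1 and OAS2, and those that fell were DDX58, SAMD9 and TAP2.

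IFITM3 and IFITM2 had the largest rises in HaCaT among the members that reached 100 normalized counts. IFITM3 went from 2068, 2187 and 2133 normalized counts to 3070, 3461 and 3222, a log2 fold change of 0.61 (SE 0.06, edgeR adjusted p = 3.174e-07). IFITM2 went from 663, 618 and 625 to 922, 1034 and 960 (0.61, SE 0.14), and its call was lost without treated replicate 2 (adjusted p = 0.0102). In both genes each treated library was above each untreated one. OAS1 went from 138, 122 and 99.7 to 198, 150 and 164 (0.50, SE 0.14), and OAS2 from 271, 282 and 234 to 372, 323 and 357 (0.42, SE 0.09). The OAS1 call was lost in 8 of 18 alternatives (adjusted p up to 0.0613), and that of OAS2 in 1. IFIT2 and IFIT3, which had 32.6 to 122 normalized counts in HaCaT, gave 0.66 and 0.67, with calls lost in 10 and 8 of 18 alternatives. IFIT1, the strongest IFIT response in TIGK, gave 0.34 (SE 0.28) in HaCaT and was not called.

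Class I presentation genes made up 4 of the 10 rises in HaCaT. B2M went from 8963, 9002 and 8387 normalized counts to 10520, 11192 and 13938 (log2 fold change 0.44, SE 0.09), and this call was kept in all 18 alternatives. HLA-B went from 630, 646 and 505 to 653, 729 and 865 (0.34, SE 0.10). The groups of HLA-B only just did not overlap, and its call was lost in 12 of 18 alternatives (adjusted p up to 0.0666). HLA-C rose by 0.31 (SE 0.07), with a call lost in 2 of 18, and HLA-E by 0.23 (SE 0.07), with a call lost in 13 of 18 (adjusted p up to 0.0523). TAP1 had 0.25 and was not called (adjusted p = 0.0126). TAP2 fell by 0.27 (SE 0.07), from 2076, 1917 and 2310 to 1776, 1776 and 1695, and this call was lost without untreated replicate 1 or 3 or treated replicate 3.

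The 2 largest falls in HaCaT were those of SAMD9 and DDX58. SAMD9, an endosomal antiviral and growth-restricting factor, went from 1099, 1137 and 1374 normalized counts to 738, 607 and 578. It fell by 0.91 on the log2 scale (SE 0.10, edgeR adjusted p = 7.05e-07), and each treated library was below each untreated one. DDX58 went from 216, 191 and 189 to 150, 129 and 140 and fell by 0.51 (SE 0.10), again without overlap. The DDX58 call was lost when HaCaT was fitted alone (adjusted p = 0.0118).

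Each line was set against its own untreated cells, and 5 members rose in both, namely IFIT2, IFIT3, IFITM3, OAS1 and OAS2. The share of all genes that rose in both lines is not given here, so this count is descriptive only. A call in 1 line and not in the other does not show that the responses differ, so the difference itself was tested. It was called for 2 of 42 members (4.76%), where 2.32% of all genes were called higher in TIGK, and for 0 in the other direction, where 2.98% were. Without untreated HaCaT replicate 1 it was called for 1 member, where 271 of 16518 genes were called higher in TIGK and 287 lower. At an unadjusted p under 0.05 edgeR gave 11 members with the larger value in TIGK and 5 with the larger value in HaCaT. The share of all genes at that limit is not given here. DESeq2 called 5 and 0 members, where it called 689 and 737 of 15006 genes. The 2 called were SAMD9, with a difference of the responses, TIGK minus HaCaT, of 1.02 (SE 0.13, edgeR adjusted p = 4.947e-05), and DDX58, with 0.64 (SE 0.12, edgeR adjusted p = 0.002011). In TIGK, SAMD9 was at 1980, 1943 and 2190 normalized counts before H2O2 and 2216, 2270 and 2134 after it, and the groups overlapped. DDX58 in TIGK went from 1664, 1754 and 1685 to 1804, 1868 and 1893, a log2 fold change of 0.13 (SE 0.07, adjusted p = 0.18). The call of DDX58 missed the limit without untreated HaCaT replicate 1 (adjusted p = 0.01001). STAT2 gave a difference of 0.48 (SE 0.12) with an adjusted p of 0.0129, PARP9 0.49 (SE 0.14) with 0.0307 and IFIT1 0.67 (SE 0.31) with 0.18. DESeq2 called STAT2, PARP9 and SAMD9L besides these 2, where SAMD9L in HaCaT rested on 22 and 6 raw counts.

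**Figure D5:**
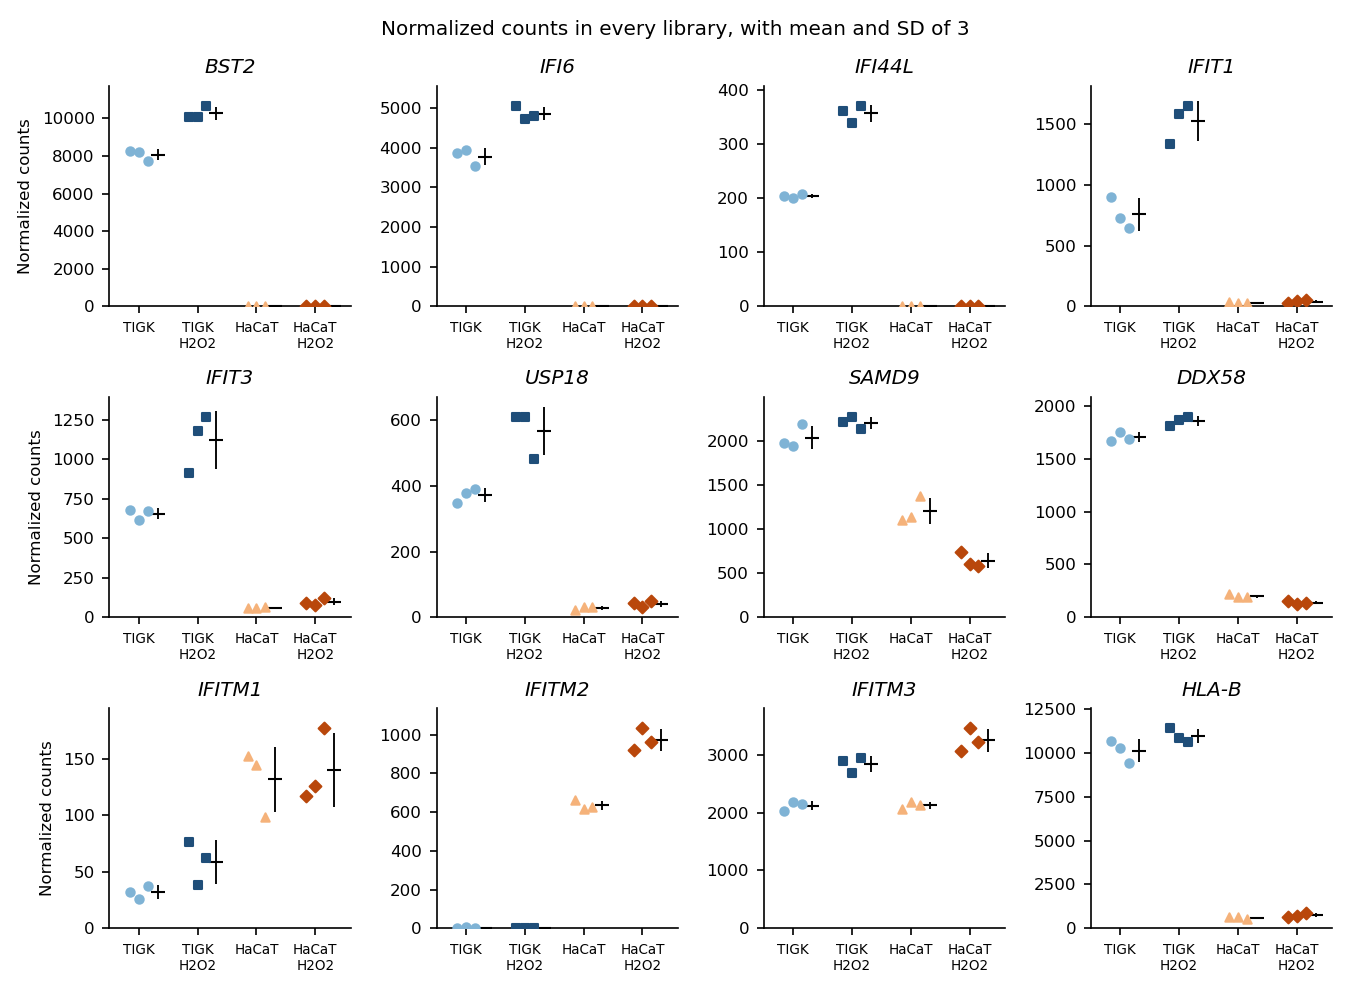
Normalized counts of 12 genes in every library (points, 3 per group) with the mean and SD of each group (black), on axes that start at 0. SAMD9 and DDX58 lie lower in treated than in untreated HaCaT, IFIT1 and IFI44L lie higher in treated TIGK, and IFITM2 is near 0 in TIGK and high in HaCaT.

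The rest of the pathway was examined through 58 further genes, of which 44 were tested. Between the untreated lines 24 (54.5%) were lower in HaCaT, beside 30.8% of all genes, and 6 (13.6%) were higher, beside 29.1%. After H2O2 21 (47.7%) were lower, beside 29.8% of all genes, and 7 (15.9%) were higher, beside 30.2%. TLR3, the endosomal sensor of double-stranded RNA, had 147 ± 26.4 normalized counts in untreated TIGK and 9.27 in untreated HaCaT (log2 fold change -4.00, SE 0.42). DHX58 (LGP2), a regulator of the RNA sensors, was lower in HaCaT by 3.07 before and 2.40 after H2O2. HLA-DPA1, a class II chain, had 107 normalized counts in untreated TIGK and was listed at 0 in untreated HaCaT, at least 37.4-fold lower, and HLA-F was lower by 2.20 after H2O2. Of the receptors and kinases, 2 of 9 were higher and 5 lower in untreated HaCaT, and of the 15 class I presentation genes tested 11 were lower and 0 were higher.

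In response to H2O2, 5 of the 44 rose (11.4%, beside 10.2% of all genes) and 5 fell (11.4%, beside 12.9%) in TIGK. In HaCaT 10 rose (22.7%, beside 18.9% of all genes) and 5 fell (11.4%, beside 15.2%). These shares were near those of all genes. SOCS3, an inhibitor of JAK kinases, rose by 1.28 (SE 0.12) in TIGK and by 1.71 (SE 0.11) in HaCaT. SOCS1, the related inhibitor that acts mainly on interferon signalling, fell by 1.00 (SE 0.22) in TIGK, and in HaCaT it fell by 1.503 (SE 0.24). TBK1, the kinase that activates IRF3, rose by 0.65 in TIGK, and MAVS, the adaptor of the RNA sensors, fell by 0.60 in HaCaT. For the difference of the responses edgeR called 0 of the 44, with 1 higher and 9 lower at an unadjusted p under 0.05. The share of all genes at that limit is not given here. DESeq2 called 1 of these genes lower, where it called 737 of 15006 genes lower. The interferons themselves were near the limit of detection. IFNL1 had 53 raw reads over the 6 TIGK libraries, with at least 2 in each, and 0 in the 6 HaCaT libraries. IFNL2 had 18 reads in TIGK, again in all 6 libraries, and 0 in HaCaT. IFNB1 had 26 in 3 of the 6 TIGK libraries, 16 of them in untreated replicate 3, and 0 in HaCaT. IFNL3 had 11 reads in TIGK and 0 in HaCaT, IFNA1 had 0 in TIGK and 6 in HaCaT, and IFNG had 0 in every library. IFNK, the keratinocyte type I interferon, had 18 reads in TIGK and 71 in HaCaT. IFNE was the only ligand with enough reads to be tested, and it fell by 3.64 in TIGK and by 1.79 in HaCaT after H2O2. Between the lines, HaCaT minus TIGK, IFNE was not called in untreated cells (log2 fold change 0.32). It was called higher in HaCaT after H2O2 (2.17). Reads of the ligands were looked up after they were seen to be few.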

How the data were processed

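Polyadenylated RNA of 12 libraries was measured. The authors deposited raw read counts per gene on GRCh38, without normalization, and the fold changes and p-values of their own comparisons, which were not used. HISAT2, StringTie, featureCounts 1.5.0-p3 and DESeq2 are named in the submitters' processing notes; strandedness and the handling of multiply mapped reads were not given in the sources used here. Libraries were grouped by their labels. Counts of genes with a mean of at least 10 (16618 genes) were fitted with edgeR 4.0.16 (R 4.3.3) after TMM normalization, with 1 mean per group over all 12 libraries and no block. P-values of the quasi-likelihood test were adjusted by Benjamini-Hochberg across the 16618 genes, with a limit of 0.01. TPM were computed from the deposited counts and gene lengths. Folds against groups listed at 0 used a floor of 3 counts per library; intervals are exact at 95% and cover counting error only. Alternatives were DESeq2 1.42.0, other scalings, no filter, groups fitted alone, other limits, a replicate block and fits without each library. The fit was tested on simulated counts. Counts of replicates differed beyond sampling noise (chi-square per degree of freedom 4.36 to 26.9).

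The members and lists were chosen with earlier results of these data known. Named with values in every library were up to 8 members per comparison with the largest log2 fold change among those called that reached 100 normalized counts, and the member with the highest TPM of each role; of the pathway lists, up to 3 genes per comparison were named in the same way. HLA-E, IFITM1 to IFITM3, TAP2 and HLA-C were described in more detail after their values were seen. The values of some marker and pathway genes are not reported here.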

Additional observations from a re-analysis of the deposited data

Results flagged for a closer look

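The responses of 2 members to H2O2 differed between the lines by the test of the difference itself, with edgeR's quasi-likelihood test and Benjamini-Hochberg adjustment over all genes. For SAMD9 the response was higher in TIGK than in HaCaT by 1.023 on the log2 scale: it fell in HaCaT, where all 3 treated libraries were below the 3 untreated ones, and was not called in TIGK. For DDX58 the difference was 0.6366: it fell in HaCaT, where all 3 treated libraries were again below the 3 untreated ones, and was not called in TIGK (0.13). Of all genes tested, 24.1% had every treated HaCaT library below every untreated one.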

How the results depend on the processing

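No call of a member turned its direction in any alternative. The counts called between the lines were within 1.5 times of those given under every alternative, and all 35 calls in untreated cells were kept in each of 18 other fits at the same limit. After H2O2, 2 of 37 calls were lost in some alternative, IFIT5 in 7 of 18 (adjusted p 0.00076 to 0.0503) and IFITM3 in 11 of 18 (0.0082 to 0.161). Of 16 calls in the response of TIGK, 3 were lost in some alternative, and of 13 in HaCaT, 10. The cause was not tested.

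In TIGK, 2 members rose past a log2 fold change of 1, and 1 fell at an adjusted p under 0.05. In HaCaT, 6 rose with upper-quartile scaling (2551 of 16618 genes over all genes) and 3 with HaCaT fitted alone (2139 of 15792). Past a log2 fold change of 1, 0 rose. Leaving out 1 library gave 5 to 10, where 2314 to 3279 of all genes rose. In HaCaT, 6 fell at an adjusted p under 0.05 and 0 past a log2 fold change of 1. The difference of the responses was called higher in TIGK for 5 members by DESeq2 (689 of 15006 genes) and 4 without a filter (769 of 33620 genes). Leaving out 1 library gave 1 to 3 members, where 271 to 698 of all genes were called higher. It was called for 6 members at an adjusted p under 0.05 and for 1 past a log2 fold change of 1. At an adjusted p under 0.05, 1 was called lower. With upper-quartile scaling, 6 of 9 calls in HaCaT were rises, beside 10 of 13. Over all genes the rises and falls were 2551 and 2824 with that scaling, beside 3135 and 2529. The shares of all genes at an adjusted p under 0.05 or past a log2 fold change of 1 are not given here.

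A replicate block gave 16 rises in TIGK, 7 rises and 3 falls in HaCaT, 33 members lower and 2 higher in HaCaT in both conditions, and 2 differences of the responses. Over all 16618 genes it gave 1360 rises in TIGK, and 2727 rises and 2295 falls in HaCaT. It called 4914 genes lower and 4632 higher in untreated HaCaT, and 4799 and 4784 after H2O2. Differences of the responses were called higher in TIGK for 280 genes and lower for 326. Whether equal replicate numbers mark a shared batch was not given in the sources used here. Deviations of same-numbered libraries correlated between -0.121 and 0.0257, and 2 of 12 libraries correlated best with their own number. With 3 libraries per group this check cannot exclude a shared batch. Depth limits what can be seen of MX2, IFI44L, BST2 and HERC5 in HaCaT and of IFITM2 in TIGK, where responses could not be measured. In HaCaT it also limits SAMD9L, IFI6, RSAD2, CMPK2, TRIM22, HERC6, MX1 and IFI27, with 6 to 52 raw counts per group.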
